A study of Homo sapiens with 12 samples.

Results

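Glycolysis and hypoxia response genes were described in HLE cells, an established human hepatocellular carcinoma line. The 40 genes were chosen by their role, with earlier results of these data known, and all 40 were found among the 26258 genes of the deposited table. They comprised 15 glycolytic enzymes, 2 lactate dehydrogenases, 3 PFKFB enzymes, 4 glucose and lactate carriers, 4 PDK kinases, 3 genes for HIF1A and the prolyl hydroxylases, 7 HIF targets and the 2 glucose sensors *TXNIP* and *ARRDC4*. HLE cells had received a control siRNA (siCtrl), siRNAs against YAP and TAZ (siY/T), the transcriptional effectors of the Hippo pathway, or siRNA against ATF4 (siATF4), a transcription factor of the stress response. Cells of each siRNA received DMSO, the solvent, or 5 µM Sorafenib (Srf), a kinase inhibitor given for liver cancer, for a time that the labels do not state, and the study's text gives another dose than the labels. The 6 groups held 2 RNA-seq libraries each, 12 in all, and nothing in the labels says whether the 2 came from separate cultures. The study's methods state biological replicates, but in another number than the libraries here. The p-values measure the spread between these libraries, which may be technical.

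Glycolysis splits glucose into pyruvate in the cytosol, starting with entry through GLUT carriers and phosphorylation by hexokinase, and lactate dehydrogenase then reduces pyruvate to lactate, which leaves through MCT carriers. PDK kinases hold pyruvate back from the mitochondria by switching off pyruvate dehydrogenase. Under low oxygen the prolyl hydroxylases stop marking HIF1A for degradation and HIF1A raises many of these genes through the core motif ACGTG, whereas the sensor MondoA reads glucose phosphate and raises *TXNIP* and *ARRDC4*, whose proteins lower glucose uptake.

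The siRNA targets were lower in the libraries labelled for them. *YAP1* measured 277 and 280 CPM (reads of a gene scaled to a common library total) in siCtrl DMSO, 46.6 and 57.7 in siY/T DMSO, 275 and 259 in siCtrl Srf and 48.7 and 47.0 in siY/T Srf cells. *WWTR1*, which encodes TAZ, stood at 170 and 173, 53.3 and 68.6, 154 and 145, and 49.3 and 54.5 CPM in the same groups. *ATF4* measured 248 and 249 CPM in siCtrl DMSO, then 96.2 and 101 in siATF4 DMSO, 484 and 492 in siCtrl Srf and 84.5 and 90.6 in siATF4 Srf cells. The crossed targets moved too, since *ATF4* was at 317 and 314 CPM in siY/T Srf and *WWTR1* at 107 and 104 in siATF4 DMSO cells. Of the hepatocyte markers *ALB*, *APOA1*, *APOB*, *TTR*, *HNF4A* and *AFP*, none passed 0.117 CPM in any library, and *SERPINA1* reached 2.32, so the defining transcripts of hepatocytes were at or near 0. *SERPINA1* reached 1 CPM only in the siY/T groups, and so was tested only through the groups in which it was high. Its means were 1.98 CPM in siY/T DMSO and 1.37 in siY/T Srf, against 0.189 and 0.517 in siCtrl cells. In siATF4 cells they were 0.0305 and 0.113 CPM. The log2 differences were 1.84 and 0.87 with siY/T and -0.73 with siATF4 under Srf, the last on values near 0. Of the 6 epithelial and mesenchymal markers, 5 were tested and their changes went both ways. *KRT8* fell with siY/T (-1.74 and -1.34) and with siATF4 (-0.94 and -0.61), and *KRT18* fell with siY/T (-1.65 and -1.16). *CDH1* rose with siY/T in DMSO (1.02) and fell with siATF4 (-1.23 and -3.14), and *FN1* fell with siATF4 (-1.36 and -0.89). *CDH1* was scarce, with means of 0.803 CPM in siCtrl DMSO, 2.14 in siY/T DMSO and 0.0519 in siATF4 DMSO cells. Under Srf its means were 6.19 CPM in siCtrl and 0.265 in siATF4 cells, so the fitted sizes depend on the 0.5 added to the CPM. With Srf *CDH1* rose in siCtrl (2.37) and siY/T cells (1.53), and *FN1* in siATF4 cells (1.03). *VIM* was not called, and *EPCAM* did not pass 0.701 CPM. The part of these markers in the results was not tested. Libraries held 41408348 to 53619732 reads on genes, so that 1 read was worth 0.0186 to 0.0241 CPM, and the libraries of siY/T DMSO lay farthest apart from each other, with an SD of 0.190 for the log2 difference over genes against 0.110 to 0.132 in the other groups.

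In control cells the most abundant transcripts of the lower part of glycolysis far exceeded those of its entry, the GLUT carriers and hexokinases. Per kilobase of the canonical transcript, *GAPDH*, which oxidizes glyceraldehyde phosphate, reached 3575 ± 36.5 CPM per kilobase (SD, n = 2) in siCtrl DMSO cells and *ENO1*, the main enolase, 2403 ± 16.1. *LDHA* followed at 877 ± 8.87 and, with the enzymes of the last and middle steps, *PKM* at 672 ± 2.34 and *TPI1* at 561 ± 3.74 CPM per kilobase. The lower part was not uniformly high. Its *PGK1* at 115 ± 1.74 and *PGAM1* at 92.3 ± 0.18 lay below the phosphofructokinase *PFKP* of the upper part, at 218 ± 7.59 CPM per kilobase. The hexokinases among the chosen genes stood at 25.5 ± 1.52 (*HK1*) and 2.47 ± 0.14 (*HK2*) and the GLUT carriers at 5.94 ± 0.20 (*SLC2A3*) and 3.35 ± 0.37 CPM per kilobase (*SLC2A1*). Another hexokinase outside the chosen genes, *HKDC1*, took 42.1% and 43.2% of the CPM per kilobase of *HK1*, *HK2* and *HKDC1* together in the siCtrl DMSO libraries. The scale compares genes within this table only, and genes with near-identical copies in the genome may be undercounted, because only reads with a single position were kept. The 15 glycolytic enzymes together took between 1.14% of the reads in siY/T Srf and 1.40% in siATF4 DMSO cells.

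Of the 40 genes, 32 had at least 1 CPM in every library and 34 had at least 1 CPM in at least 2 libraries and were tested. *PDK4* and *TXNIP* reached 1 CPM in 6 and 8 libraries only and so passed through the groups in which they were high. *ALDOC*, *SLC16A3* (the lactate exporter MCT4), *EGLN3*, *CA9*, *CA12* and *ARRDC4* were under 1 CPM in every library and were not tested. *EGLN3* and *CA9*, which low oxygen is known to raise sharply, lay at or below 0.0198 and 0.128 CPM, and 3 reads, the most that a count of 0 allows, are worth 0.0559 to 0.0724 CPM in these libraries, a limit that covers counting error only.

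Groups were compared by limma on the scale log2(CPM + 0.5), which understates the change of low genes, and a gene counted as changed when P, before adjustment and two-sided, was under 0.05 and the log2 difference at least 0.58 in size. These thresholds follow the study's methods. Loss of YAP/TAZ in DMSO changed 4 of the 34 genes (11.8%), 1 up and 3 down, against 14.6% of all 13515 genes tested, 11.0% up and 3.61% down. Under Srf it changed 4 (11.8%), 1 up and 3 down, against 9.95%, 6.11% up and 3.84% down. Loss of ATF4 changed 7 (20.6%) in DMSO, 3 up and 4 down, against 22.7%, 8.57% up and 14.1% down. Under Srf it changed 10 (29.4%), 4 up and 6 down, against 28.9%, 10.3% up and 18.7% down. The shares of the glycolysis and hypoxia genes that changed with either siRNA were thus near those of all genes. Srf against DMSO raised 3 genes (8.82%) and lowered 0 in siCtrl cells, against 17.5% of all genes, 12.3% up and 5.15% down. It raised 2 (5.88%) and lowered 0 in siY/T cells, against 9.97%, 5.83% up and 4.14% down. In siATF4 cells it raised 1 and lowered 1 (5.88%), against 8.63%, 5.68% up and 2.95% down. The split of all called genes depends on the scaling, since after quantile normalization the share of them that was higher went from 75.3% to 57.0% for siY/T in DMSO, from 35.4% to 48.5% for siATF4 under Srf, and from 70.5% to 52.3%, 58.5% to 46.9% and 65.8% to 54.7% for Srf in siCtrl, siY/T and siATF4 cells. All comparisons with siCtrl share its libraries. In bulk libraries, fewer cells that express a gene and less RNA of it per cell cannot be told apart.

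The median log2 difference over the 34 genes stayed between -0.03 and 0.00 in the 7 comparisons, beside -0.01 to 0.07 for all genes. In all, 22 genes were called in none of the 7 comparisons, with log2 differences between -0.56 and 0.57, among them *GAPDH*, *ENO1*, *PKM*, *PGK1*, *TPI1*, *ALDOA*, *HIF1A*, *SLC2A1* and *BNIP3*. Small changes were measurable all the same. With a Benjamini-Hochberg adjusted P under 0.05 in limma and no minimum size, 22, 21, 24 and 22 of the 34 genes passed in the siRNA comparisons in the order above, and 23, 20 and 17 in the Srf comparisons, beside 60.1%, 48.9%, 67.9%, 73.2%, 63.2%, 52.9% and 50.4% of all genes. The plot of log2 differences shows that calls gathered in 12 genes, while most rows of the glycolytic trunk stayed pale.

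**Figure D1:**
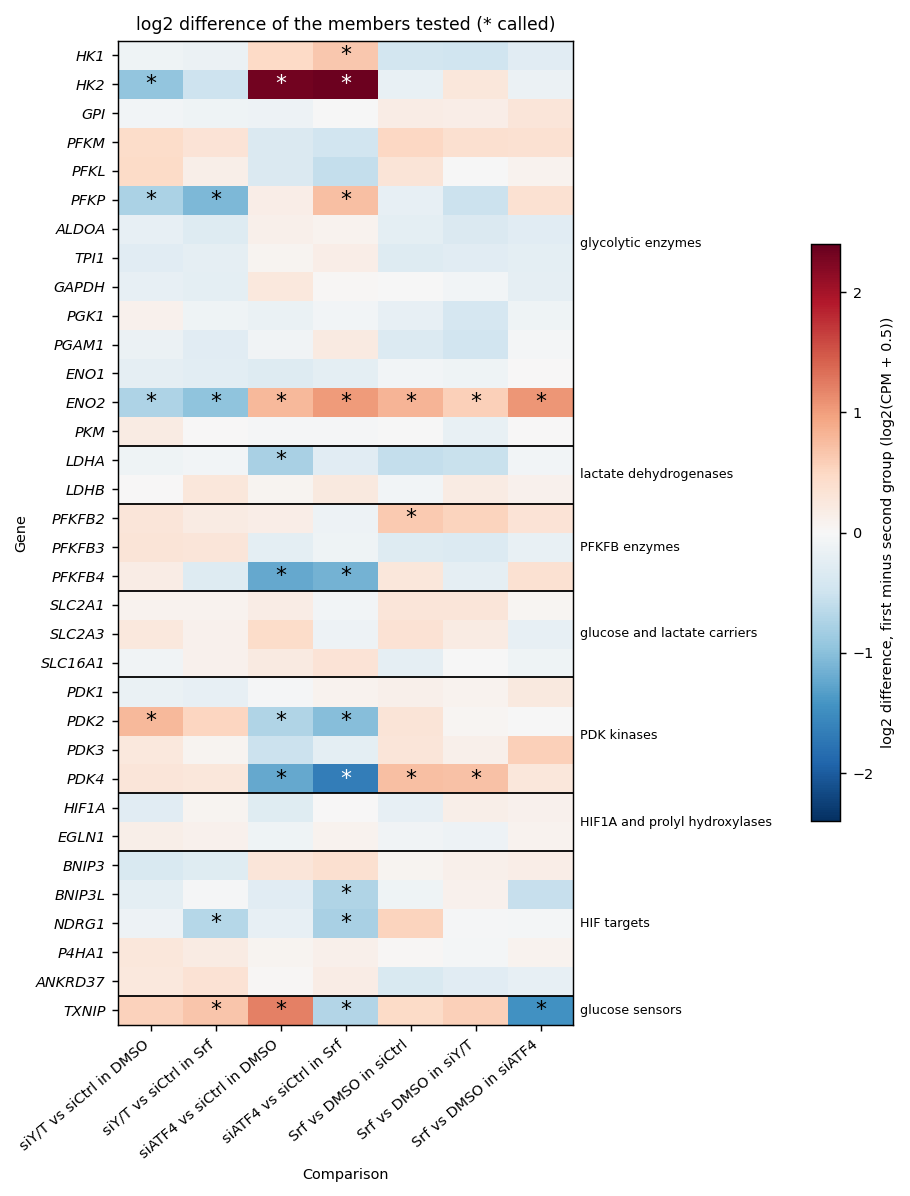
log2 differences (colour, on the log2(CPM + 0.5) scale, first minus second group of each column, 2 against 2 libraries) of the 34 genes tested, grouped by role, with asterisks on called changes. *HK2* is the darkest red row with 2.31 and 2.35 in the siATF4 columns, *ENO2* is called in all 7 columns, and 22 rows carry no asterisk.

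*HK2*, the inducible hexokinase on chromosome 2 (GRCh37 chr2:75061254-75120486, plus strand), showed the largest differences of the 34 genes on the log2(CPM + 0.5) scale. That scale understates the change of scarce genes such as *PDK4*, whose mean CPM differed by a larger factor with siATF4. *HK2* stood at 14.4 and 13.3 CPM in siCtrl DMSO, 7.41 and 6.47 in siY/T DMSO and 68.9 and 72.9 in siATF4 DMSO cells. In the same order under Srf it stood at 12.2 and 12.3 CPM in siCtrl, 9.22 and 7.76 in siY/T and 64.9 and 63.9 in siATF4 cells. The siATF4 libraries were above and the siY/T libraries below all siCtrl libraries of the same treatment, without overlap. Depletion of ATF4 raised *HK2* 4.97-fold in DMSO (log2 2.31 ± 0.08 (SE), limma with Benjamini-Hochberg adjustment, adjusted P = 1.1e-10) and 5.10-fold under Srf (2.35 ± 0.08, adjusted P = 7.5e-11). Depletion of YAP/TAZ lowered it 1.93-fold in DMSO (-0.95 ± 0.08, adjusted P = 7.7e-07 in limma) and under Srf the difference was -0.51 ± 0.08 (adjusted P = 2.8e-04), below the minimum size. Srf itself left *HK2* between -0.18 and 0.27 on the log2 scale in the 3 siRNA arms.

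Hexokinase messages also differed in composition. *HK1*, the constitutive hexokinase, had a range of 59.1 to 130 CPM over the 12 libraries and was called once, higher by 0.65 ± 0.06 on the log2 scale with siATF4 under Srf (limma adjusted P = 9.2e-07). Of the CPM per kilobase of *HK1* and *HK2* together, *HK2* made up 8.81% and 8.86% in the libraries of siCtrl DMSO, 4.98% and 4.89% in siY/T DMSO and 25.3% and 27.0% in siATF4 DMSO cells. Under Srf these shares were 10.6% and 10.2%, 8.51% and 7.75%, and 28.8% and 27.1%. A further hexokinase, *HKDC1*, named among the other glycolysis genes, went from 77.3 and 74.5 CPM in siCtrl DMSO cells to 162 and 169 CPM with Srf, a 2.17-fold rise (limma adjusted P = 5.6e-09), and in siCtrl Srf cells its 45.3 ± 1.29 CPM per kilobase (SD, n = 2) exceeded the 18.7 ± 0.74 of *HK1*. With *HKDC1* counted as well, a choice made after seeing the data, *HK2* made up 5.10% and 5.03% in siCtrl DMSO, 3.12% and 2.87% in siY/T DMSO and 17.6% and 18.2% in siATF4 DMSO cells. Under Srf it then made up 3.34% and 3.22%, 3.64% and 3.12%, and 14.4% and 13.6%, so that the siY/T and siCtrl libraries overlapped while the siATF4 libraries stayed above. *HKDC1* itself took 68.5% and 68.3% in siCtrl Srf, 57.2% and 59.7% in siY/T Srf and 49.9% and 49.8% in siATF4 Srf cells.

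**Figure D2:**
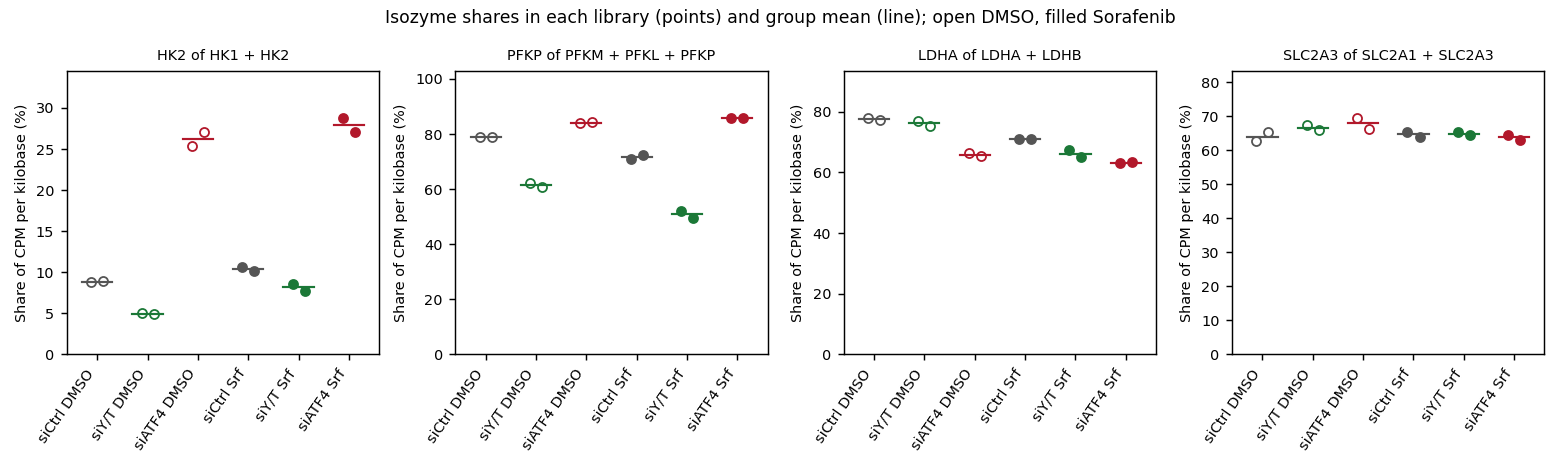
Share (%) of the CPM per kilobase of the family named above each panel in each library (points; open DMSO, filled Srf) and group mean (line), for 6 groups of 2 libraries. The *HK2* share lies at 25.3% to 28.8% in the 4 siATF4 libraries and at or below 10.6% in the other 8, whereas the *SLC2A3* share differs little between groups.

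RefSeq promoter windows (GRCh38.p14, 250 bases before to 50 after the start) were held for 35 of the 40 genes, and the windows of *HK2* and *ENO2* are shown because these genes had the most calls among those with the hypoxia core ACGTG. Capitals mark this core, written on the other strand as CACGT.
HK2, chr2:74833877-74834176, plus strand: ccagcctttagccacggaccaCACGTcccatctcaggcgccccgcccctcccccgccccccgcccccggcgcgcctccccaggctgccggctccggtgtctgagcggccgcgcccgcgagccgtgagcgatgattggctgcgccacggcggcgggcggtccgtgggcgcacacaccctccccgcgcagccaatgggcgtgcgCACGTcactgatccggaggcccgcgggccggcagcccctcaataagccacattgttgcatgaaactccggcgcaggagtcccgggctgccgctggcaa
ENO2, chr12:6914330-6914629, plus strand: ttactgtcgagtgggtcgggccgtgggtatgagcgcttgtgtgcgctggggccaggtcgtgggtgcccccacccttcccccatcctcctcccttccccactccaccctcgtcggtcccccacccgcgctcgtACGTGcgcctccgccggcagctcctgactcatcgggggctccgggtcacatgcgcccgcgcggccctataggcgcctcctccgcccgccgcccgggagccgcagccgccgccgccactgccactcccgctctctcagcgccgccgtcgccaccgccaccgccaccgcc
The core, searched on both strands, was in the windows of 15 of the 35 genes and in 21.6% of all 27305 windows. The E-box CACGTG, which contains the core, was in 6 of 35 (*ALDOC*, *GAPDH*, *LDHA*, *BNIP3*, *ANKRD37* and *ARRDC4*) and in 7.43% of all windows. The ATF4 composite core TGATGNAA was in 1 of 35 (*HK1*) against 3.67%, and the TEAD motif GGAATG in 2 (*PGAM1* and *ENO1*) against 14.0%. Matches to short motifs are descriptions of the letters only. Of the 7 genes with a called change of at least 1 on the log2 scale (*HK2*, *PFKP*, *ENO2*, *PFKFB4*, *PDK2*, *PDK4* and *TXNIP*), only *HK2* and *ENO2* had a match to any of these 4 motifs, and *HK2* held the core at 229 and 48 bases and *ENO2* at 118 bases before the start.

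*PFKP*, the platelet-type phosphofructokinase of the committed step of glycolysis (GRCh37 chr10:3109740-3178994, plus strand), was the most abundant of the 3 isozymes. It stood at 585 and 557 CPM in siCtrl DMSO, 353 and 320 in siY/T DMSO and 634 and 644 in siATF4 DMSO cells. With Srf the libraries held 476 and 524, 248 and 225, and 806 and 850 CPM. The siY/T libraries were the lowest and the siATF4 libraries the highest within each treatment. Loss of YAP/TAZ lowered *PFKP* 1.70-fold in DMSO (log2 -0.76 ± 0.06, limma adjusted P = 3.5e-07) and 2.11-fold under Srf (-1.08 ± 0.06, adjusted P = 3.3e-08). Loss of ATF4 raised it 1.66-fold under Srf (0.73 ± 0.06, limma adjusted P = 2.1e-07), while the difference in DMSO was 0.16 ± 0.06. *PFKM* and *PFKL*, the muscle and liver isozymes, were not called, and with siY/T in DMSO their log2 differences were 0.45 ± 0.05 and 0.46 ± 0.05. With siATF4 under Srf these were -0.46 and -0.56. There *PFKL* passed the minimum size after quantile normalization (-0.60) and without siCtrl Srf replicate 1 (-0.59) or siATF4 Srf replicate 2 (-0.62). The *PFKP* share of the family per kilobase was 78.8% and 79.0% in siCtrl DMSO, 62.4% and 60.8% in siY/T DMSO and 84.0% and 84.3% in siATF4 DMSO cells, and under Srf it was 70.9% and 72.5%, 52.2% and 49.6%, and 85.8% and 85.9%.

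*ENO2*, the neuronal enolase (GRCh37 chr12:7023744-7032860, plus strand), was the one gene called in all 7 comparisons. It stood at 24.5 and 27.5 CPM in siCtrl DMSO, 15.1 and 15.6 in siY/T DMSO and 45.5 and 44.3 in siATF4 DMSO cells. Under Srf the corresponding values were 46.0 and 45.8, 22.7 and 23.7, and 94.0 and 94.0 CPM. Each siY/T library lay below and each siATF4 library above the siCtrl libraries of its treatment, and each Srf library above the DMSO libraries of its siRNA. Depletion of YAP/TAZ lowered it 1.67-fold in DMSO and 1.96-fold under Srf (log2 -0.74 ± 0.06 and -0.97 ± 0.06, limma adjusted P = 3.1e-07 and 4.9e-08). Depletion of ATF4 raised it by 0.78 ± 0.06 and 1.03 ± 0.06 (limma adjusted P = 8.9e-08 and 4.6e-09). Srf raised it 1.75-fold in siCtrl cells (0.81 ± 0.06, limma adjusted P = 1.2e-07), 2.08-fold in siATF4 cells (1.06 ± 0.06, adjusted P = 2.8e-08), and it was also higher in siY/T cells (0.58 ± 0.06, adjusted P = 4.6e-06). The last value lay at the minimum size and lost its call at 0.56 without siY/T DMSO replicate 1 and 0.55 without siY/T Srf replicate 2. It was 0.57 with a pseudocount of 1 and with edgeR, 0.55 with TMM scaling and 0.53 after quantile normalization. *ENO1*, at 3327 to 4300 CPM in the 12 libraries, was the far larger message, since *ENO2* reached 11.3 ± 0.93 CPM per kilobase (SD, n = 2) in siCtrl DMSO cells.

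Of the other glycolytic enzymes, *GAPDH*, the most abundant, stood at 4628 and 4561 CPM in siCtrl DMSO, 4196 and 3863 in siY/T DMSO and 5550 and 5374 in siATF4 DMSO cells. The Srf libraries held 4560 and 4590, 3843 and 3895, and 4535 and 4850 CPM. The siY/T libraries were below the siCtrl libraries of the same treatment, the siATF4 libraries above them in DMSO but overlapping under Srf, and its log2 differences stayed between -0.24 and 0.25. Of the 14 glycolytic enzymes tested, 3 (21.4%) fell with siY/T in DMSO and 2 (14.3%) under Srf. Of all genes, 3.61% and 3.84% were called lower there, and 14.6% and 9.95% were called in either direction. With siATF4, 2 (14.3%) rose in DMSO and 4 (28.6%) under Srf. Of all genes, 8.57% and 10.3% were called higher there, and 22.7% and 28.9% in either direction. The share called in either direction was thus near that of all genes. In the direction of these calls it was above that of all genes, on 2 to 4 enzymes a comparison. That direction was taken from the calls themselves, and the split of all genes depends on the scaling, so this is no test of an excess. The calls were those of *HK2*, *PFKP*, *ENO2* and, for siATF4 under Srf, *HK1*. The median log2 difference of the 14 was -0.16 and -0.23 with siY/T, beside 0.07 and 0.05 for all genes, and 0.02 and 0.06 with siATF4, beside 0.00 and -0.01.

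**Figure D3:**
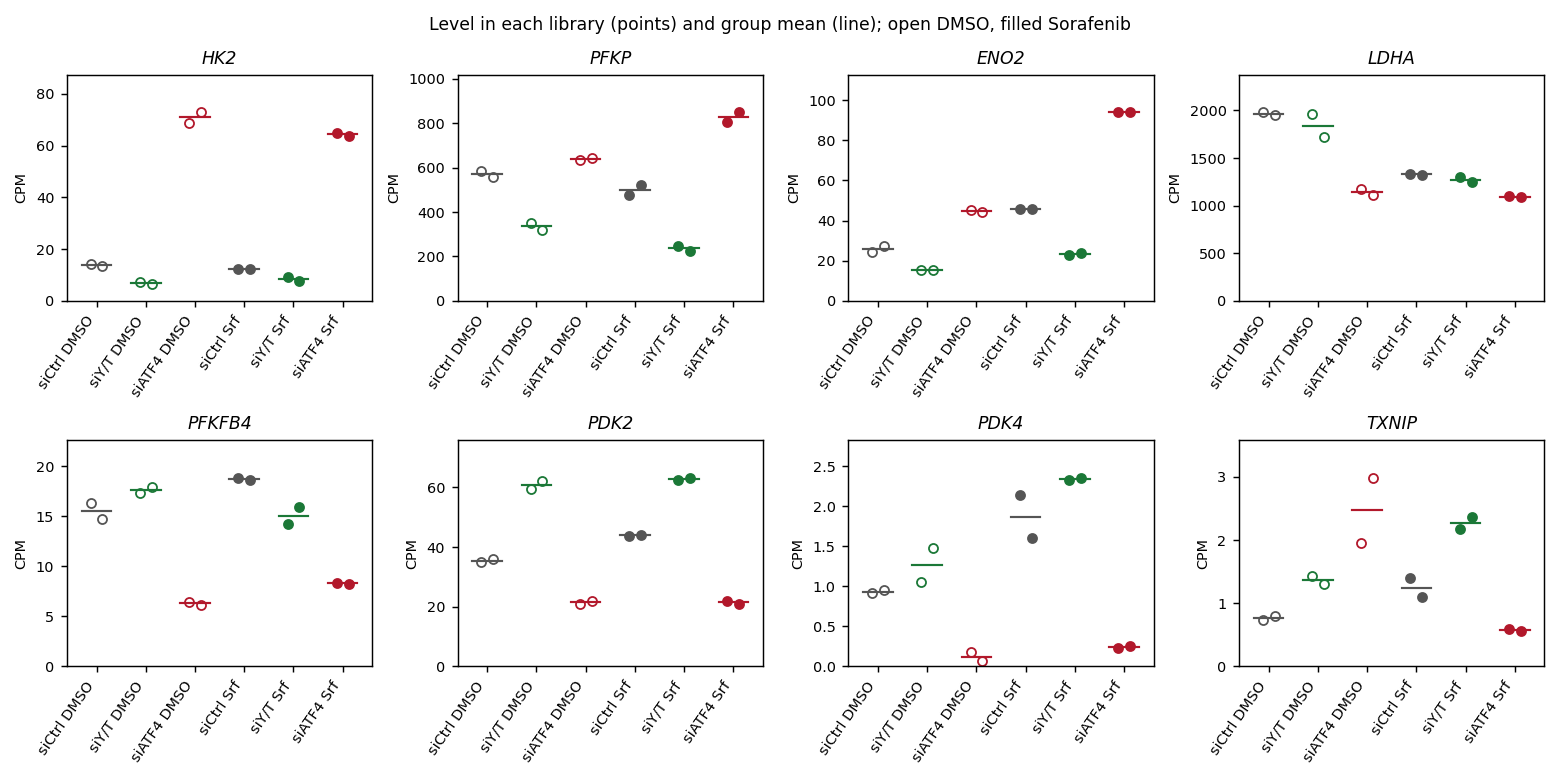
CPM (linear axis from 0) of 8 genes in each library (points; open DMSO, filled Srf) with the mean of the 2 libraries (line), in 6 groups. Within a treatment the siATF4 libraries stand apart upward for *HK2* and *ENO2* and downward for *LDHA* in DMSO, *PFKFB4*, *PDK2* and *PDK4*. *TXNIP* is highest in siATF4 DMSO but lowest in siATF4 Srf cells.

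*LDHA*, the lactate dehydrogenase subunit that favours lactate formation (GRCh37 chr11:18416110-18429972, plus strand), stood at 1981 and 1952 CPM in siCtrl DMSO, 1961 and 1720 in siY/T DMSO and 1176 and 1117 in siATF4 DMSO cells. In Srf cells the values were 1337 and 1323, 1301 and 1247, and 1097 and 1093 CPM. The siATF4 libraries were the lowest of each treatment, and the siY/T and siCtrl libraries overlapped in DMSO. Loss of ATF4 lowered it 1.72-fold in DMSO (log2 -0.78 ± 0.05, limma adjusted P = 5.1e-08) and the difference under Srf was -0.28 ± 0.05. Srf shifted *LDHA* by -0.56 ± 0.05 in siCtrl and -0.53 ± 0.05 in siY/T cells (limma adjusted P = 1.5e-06 and 6.2e-06), just under the minimum size, and by -0.07 ± 0.05 in siATF4 cells. The siCtrl value passed the minimum with TMM scaling and with edgeR (-0.60 in both) and with DESeq2 (-0.61). *LDHB*, the subunit of oxidative tissues, stayed at 312 to 390 CPM and was not called, so that the *LDHA* share of both per kilobase was 78.0% and 77.2% in siCtrl DMSO, 66.3% and 65.6% in siATF4 DMSO, 71.1% and 71.1% in siCtrl Srf and 63.1% and 63.3% in siATF4 Srf cells.

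The PFKFB enzymes make and remove the regulatory form of fructose bisphosphate, an activator of phosphofructokinase. *PFKFB3*, whose kinase activity dominates, made up 91.7% to 96.0% of the CPM per kilobase of the 3 enzymes and stood at 589 and 562 CPM in siCtrl DMSO, 718 and 711 in siY/T DMSO and 496 and 489 in siATF4 DMSO cells. In the same order under Srf it stood at 467 and 465, 576 and 568, and 430 and 437 CPM. These groups did not overlap within a treatment, but the log2 differences, from -0.32 to 0.31, were below the minimum size in every comparison. *PFKFB4*, a related form (GRCh37 chr3:48555117-48594236, minus strand), stood at 16.3 and 14.7 CPM in siCtrl DMSO, 17.3 and 17.9 in siY/T DMSO and 6.41 and 6.16 in siATF4 DMSO cells. With Srf the libraries held 18.9 and 18.6, 14.2 and 15.9, and 8.32 and 8.24 CPM. The 4 siATF4 libraries were below the other 8. Depletion of ATF4 lowered it 2.36-fold in DMSO (log2 -1.24 ± 0.07, limma adjusted P = 1.2e-08) and 2.19-fold under Srf (-1.13 ± 0.07, adjusted P = 1.8e-08). *PFKFB2* was called once, higher by 0.63 ± 0.07 with Srf in siCtrl cells (limma adjusted P = 8.1e-06), and quantile normalization took it to 0.55.

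None of the 3 carriers tested was called in any comparison. *SLC16A1*, which encodes the monocarboxylate carrier MCT1, stood at 110 and 113 CPM in siCtrl DMSO, 104 and 104 in siY/T DMSO and 129 and 129 in siATF4 DMSO cells, and 96.6 and 95.3, 106 and 101, and 123 and 119 CPM under Srf. The siATF4 libraries were the highest of each treatment, with log2 differences from siCtrl of 0.21 ± 0.04 and 0.33 ± 0.04. *SLC2A3* (GLUT3) lay between 22.2 and 31.6 and *SLC2A1* (GLUT1) between 10.4 and 14.9 CPM. Per kilobase *SLC2A3* exceeded *SLC2A1* in every library, with 62.7% to 69.5% of the CPM per kilobase of both. *SLC16A3* lay between 0.0379 and 0.214 CPM.

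*PDK2*, a kinase found in most tissues (GRCh37 chr17:48172715-48189516, plus strand), was called in opposite directions under the depletions of YAP/TAZ and ATF4. It stood at 34.9 and 35.9 CPM in siCtrl DMSO, 59.5 and 62.1 in siY/T DMSO and 20.8 and 22.0 in siATF4 DMSO cells. Under Srf the corresponding values were 43.8 and 44.1, 62.6 and 63.3, and 21.9 and 20.9 CPM. The order siY/T, siCtrl, siATF4 held in both treatments without overlap. Loss of YAP/TAZ raised it 1.71-fold in DMSO (log2 0.77 ± 0.05, limma adjusted P = 7.6e-08) and the difference under Srf was 0.51 ± 0.05. Loss of ATF4 lowered it 1.64-fold in DMSO (-0.71 ± 0.05, limma adjusted P = 6.7e-08) and 2.03-fold under Srf (-1.02 ± 0.05, adjusted P = 1.5e-09). *PDK3* had a range of 16.8 to 32.7 and *PDK1* of 5.44 to 7.22 CPM, and neither was called.

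*PDK4*, the kinase of fasting (GRCh37 chr7:95212811-95225828, minus strand), was scarce. It stood at 0.914 and 0.954 CPM in siCtrl DMSO, 1.05 and 1.47 in siY/T DMSO and 0.171 and 0.0594 in siATF4 DMSO cells, where the values rest on 8 and 3 reads. The Srf libraries held 2.14 and 1.61, 2.33 and 2.36, and 0.228 and 0.257 CPM. The 4 siATF4 libraries were the lowest, with 3 to 12 reads each. Depletion of ATF4 lowered it in DMSO (log2 -1.23 ± 0.15, limma adjusted P = 1.0e-05) and under Srf (-1.67 ± 0.15, adjusted P = 4.1e-07), where the group means were 0.934 against 0.115 and 1.87 against 0.242 CPM. At so few reads the fitted size depends on the pseudocount. Srf raised it in siCtrl (0.72 ± 0.15, limma adjusted P = 0.0011) and in siY/T cells (0.70 ± 0.15, adjusted P = 0.0019). Each of these rises lost its call without 1 library, at 0.56 without siCtrl Srf replicate 1 and 0.53 without siY/T DMSO replicate 1, and with a pseudocount of 1, at 0.56 and 0.57.

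*HIF1A* itself, the oxygen-regulated subunit, was not called. It stood at 135 and 146 CPM in siCtrl DMSO, 103 and 131 in siY/T DMSO and 113 and 116 in siATF4 DMSO cells, and at 129 and 117, 127 and 129, and 125 and 122 CPM under Srf. HIF1A is controlled mainly as protein, which was not measured here. *EGLN1*, the main prolyl hydroxylase, stayed between 70.7 and 85.9 CPM. Of the HIF targets, 5 of 7 were tested. *BNIP3L*, the mitophagy receptor NIX, stood at 105 and 111 CPM in siCtrl DMSO, 86.0 and 98.6 in siY/T DMSO and 90.7 and 89.1 in siATF4 DMSO cells, and at 107 and 95.0, 103 and 94.4, and 61.6 and 59.9 CPM under Srf. The siATF4 Srf libraries were the lowest of the 12, and loss of ATF4 under Srf lowered *BNIP3L* 1.65-fold (log2 -0.72 ± 0.07, limma adjusted P = 7.0e-07).

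*NDRG1*, a stress- and hypoxia-induced gene, was highest in siCtrl cells under Srf. It stood at 34.3 and 34.1 CPM in siCtrl DMSO and at 49.7 in both libraries of siCtrl Srf, whereas the other 8 libraries lay between 28.2 and 32.8 CPM. Under Srf it was lower with siY/T (log2 -0.68 ± 0.05, limma adjusted P = 4.7e-07) and with siATF4 (-0.78 ± 0.05, adjusted P = 2.7e-08), both against the same 2 siCtrl libraries. The Srf response was 0.53 ± 0.05 in siCtrl, -0.02 ± 0.05 in siY/T and -0.05 ± 0.05 in siATF4 cells. *BNIP3*, *P4HA1* and *ANKRD37* were called in no comparison.

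*TXNIP*, an arrestin-like protein that lowers glucose uptake and binds thioredoxin, changed direction between the treatments. The gene lies at GRCh37 chr1:145438490-145442635, on the plus strand there and on the minus strand in GRCh38.p14. Its window is shown with that of *ARRDC4*, its relative in the same glucose response. Capitals mark a pair of E-box-like words, CACGNG, 5 bases apart in *TXNIP*, a pattern searched after its window had been seen and found in 0.0732% of all windows and in 2 of 35 here (*P4HA1* and *TXNIP*), and the E-box CACGTG in *ARRDC4*.
TXNIP, chr1:145996530-145996829, minus strand: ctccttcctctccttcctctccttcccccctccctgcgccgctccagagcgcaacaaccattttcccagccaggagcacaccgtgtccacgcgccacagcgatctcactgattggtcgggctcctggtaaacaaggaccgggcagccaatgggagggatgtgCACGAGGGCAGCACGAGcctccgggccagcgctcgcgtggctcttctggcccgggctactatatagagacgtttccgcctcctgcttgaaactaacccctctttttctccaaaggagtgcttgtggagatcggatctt
ARRDC4, chr15:97960453-97960752, plus strand: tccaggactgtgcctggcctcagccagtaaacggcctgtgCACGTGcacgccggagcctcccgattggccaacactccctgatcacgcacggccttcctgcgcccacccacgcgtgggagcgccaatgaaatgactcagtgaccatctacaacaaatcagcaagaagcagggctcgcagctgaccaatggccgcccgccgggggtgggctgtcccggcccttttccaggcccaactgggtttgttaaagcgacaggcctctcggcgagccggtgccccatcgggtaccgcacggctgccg
*TXNIP* stood at 0.727 and 0.799 CPM in siCtrl DMSO, 1.42 and 1.30 in siY/T DMSO and 1.95 and 2.99 in siATF4 DMSO cells. In Srf cells the values were 1.39 and 1.10, 2.18 and 2.36, and 0.588 and 0.556 CPM. These values rest on 26 to 151 reads a library. The siATF4 libraries were the highest in DMSO and the lowest under Srf, with no overlap with siCtrl in either treatment.

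At the low level of *TXNIP*, the 0.5 added to the CPM makes its fitted folds smaller than the ratios of the CPM themselves. On this fitted scale loss of ATF4 raised *TXNIP* 2.32-fold in DMSO (log2 1.21 ± 0.15, limma adjusted P = 1.2e-05) and lowered it 1.62-fold under Srf (-0.70 ± 0.15, adjusted P = 0.0011). The difference between these effects was -1.91 ± 0.22 (limma, Benjamini-Hochberg adjusted P = 2.8e-05), between -2.16 and -1.65 when each library was left out in turn. Srf lowered *TXNIP* by 2.73-fold in siATF4 cells (-1.45 ± 0.15, limma adjusted P = 7.9e-06), while the Srf response was 0.46 ± 0.15 in siCtrl and 0.57 ± 0.15 in siY/T cells. These became called with a pseudocount of 0.1 (0.63 and 0.70), with edgeR (0.68 and 0.70) and with DESeq2 (0.67 and 0.71). The fall with siATF4 under Srf was no longer called without siCtrl Srf replicate 1 (-0.58), with a pseudocount of 1 (-0.51) or after quantile normalization (-0.27). Depletion of YAP/TAZ raised *TXNIP* under Srf (0.67 ± 0.15, limma adjusted P = 0.0029), a call lost at 0.55 without siCtrl Srf replicate 2 and at 0.55 with a pseudocount of 1, and the difference in DMSO was 0.56 ± 0.15, which became called under the same 3 settings (0.76 to 0.79). *ARRDC4* lay between 0.193 and 0.536 CPM in the 12 libraries, too low to be tested. Of the 4 genes tested of the MondoA network, 1 was called with siATF4 in DMSO, up, against 22.7% of all genes, 8.57% up. With siY/T 0 of them were called in DMSO and 0 under Srf, against 14.6% and 9.95% of all genes. With Srf in siATF4 cells 1 was called, down, against 8.63% of all genes, 2.95% down. The latter, *ARRDC2*, named after its values were seen, had a difference between the siATF4 effects of -0.65 ± 0.16 (limma adjusted P = 0.0057), and *MLXIP*, which encodes MondoA, was present at 64.5 to 83.3 CPM.

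Whether the effect of a depletion differed between Srf and DMSO was tested as a difference of log2 differences, called at an adjusted P under 0.05 and a size of at least 0.58. For siY/T, 0 of the 34 genes were called in limma, against 4.96% of all genes, 0.821% up and 4.14% down, and edgeR and DESeq2 also called 0. Of all genes called there, 16.6% were higher, and 40.7% after quantile normalization. At an unadjusted P under 0.05 there were 12 and at an adjusted P under 0.05, of any size, 8, against 22.0% of all genes. The largest of these was *NDRG1* (-0.56 ± 0.08, limma adjusted P = 4.8e-04), called at -0.62 without siY/T DMSO replicate 2. For siATF4, 1 gene was called (2.94%), *TXNIP*, against 12.3% of all genes, 4.31% up and 7.97% down (35.1% of the calls higher, and 47.2% after quantile normalization), and 13 passed the adjusted P at any size, against 41.1%. *NDRG1* (-0.58 ± 0.08), *PFKP* (0.57 ± 0.09), *SLC2A3* (-0.55 ± 0.08) and *LDHA* (0.50 ± 0.08) came next, with limma adjusted P of 8.4e-05, 2.7e-04, 1.4e-04 and 2.8e-04. Called genes numbered 3 without siCtrl DMSO replicate 1 or siATF4 Srf replicate 1 and 2 without siCtrl DMSO replicate 2, siATF4 DMSO replicate 2 or siCtrl Srf replicate 2, *NDRG1*, *SLC2A3* or *PFKP* being the added ones.

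**Figure D4:**
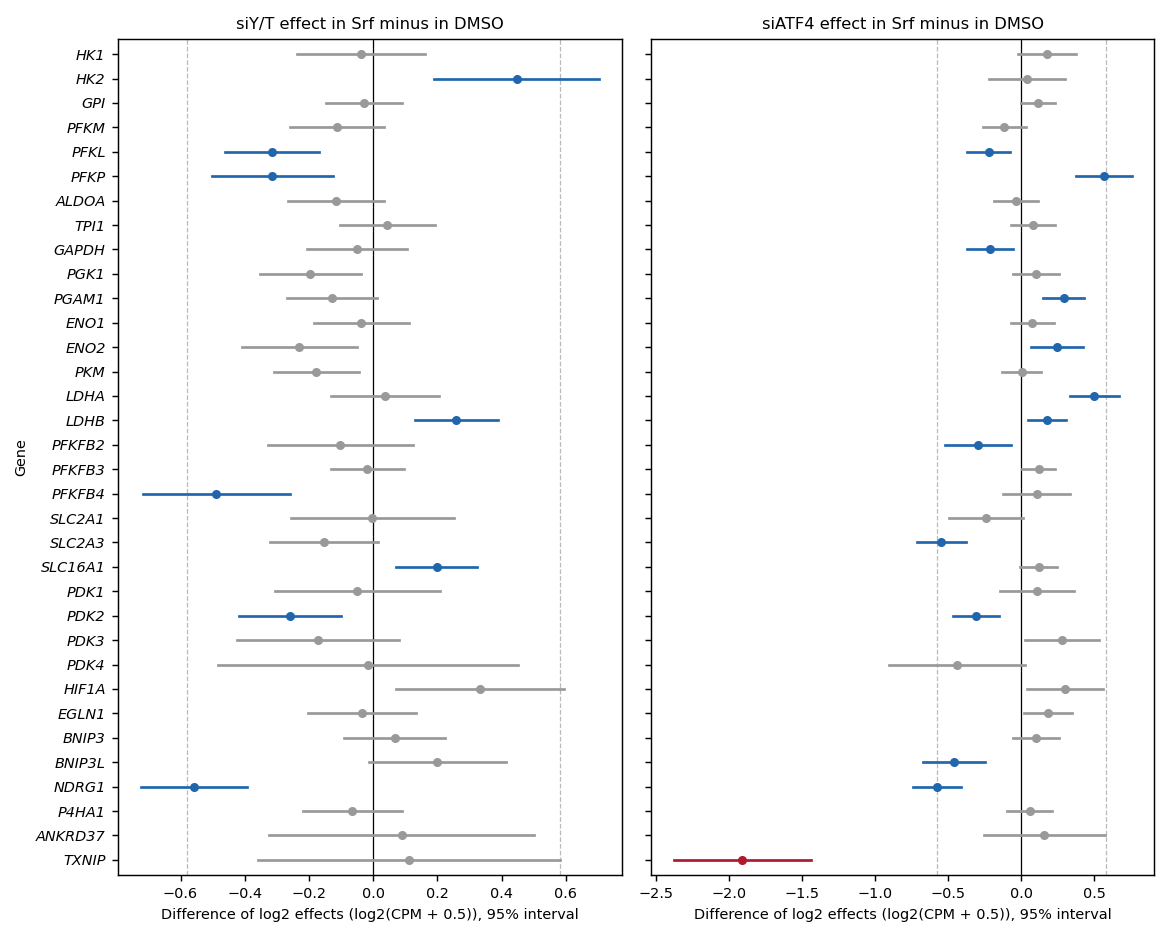
Difference of the siRNA effects, Srf minus DMSO, on the log2(CPM + 0.5) scale (point) with the 95% interval of limma (line) for the 34 genes tested, siY/T left and siATF4 right, with different x axes. Red marks called differences, blue an adjusted P under 0.05 without the minimum size of 0.58 (dashed lines) and grey the rest, and *TXNIP* at -1.91 is the one red point.

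Genes around the pathway were taken from lists of other genes of glucose metabolism and hypoxia. Of the 8 other glycolysis genes tested, 4 were called with Srf in siCtrl cells, 3 up and 1 down, against 17.5% of all genes. In the siRNA comparisons 1, 1, 1 and 2 were called, against 14.6%, 9.95%, 22.7% and 28.9% of all genes. With Srf in siY/T and siATF4 cells 3 and 1 were called, against 9.97% and 8.63%. *LDHD*, a mitochondrial dehydrogenase of D-lactate, was lower with siATF4 under Srf (log2 -1.93 ± 0.15, limma adjusted P = 7.3e-08), from 1.67 and 1.91 to 0.190 and 0.0214 CPM. Of the 3 gluconeogenesis genes tested, 1 was called with siATF4 in each treatment, against 22.7% and 28.9% of all genes. The same gene was called with siY/T under Srf, against 9.95%. This was *PCK2*, the mitochondrial PEP carboxykinase, with 60.6 and 65.4 CPM in siCtrl Srf against 10.5 and 11.2 in siATF4 Srf cells (-2.49 ± 0.07, limma adjusted P = 2.0e-11). It had risen by 1.14 ± 0.07 with Srf in siCtrl cells. *FBP1* and *G6PC1* had 0 reads in all 12 libraries. Of the 7 pentose phosphate genes, 3 (42.9%, 1 up and 2 down) were called with siATF4 in DMSO and 4 (57.1%, 1 up and 3 down) under Srf, against 22.7% and 28.9% of all genes, and none in the other 5 comparisons, where 3 to 6 passed an adjusted P under 0.05 in limma at any size. Named after their values were seen, *PGD* and *TKT* were lower and *RPIA* higher in both treatments.

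Of the 9 genes of pyruvate entry to mitochondria, 2 (22.2%, against 22.7% and 28.9% of all genes) were called with siATF4 in each treatment, and these, named after their values were seen, were the subunits of the pyruvate carrier, with *MPC1* higher (log2 0.76 ± 0.09 in DMSO) and *MPC2* lower (-0.87 ± 0.06). Of the 7 other carriers tested, 2 (28.6%) fell with siATF4 in each treatment. Of all genes, 14.1% and 18.7% were called lower there, and 22.7% and 28.9% in either direction. *SLC2A2*, the hepatocyte carrier GLUT2, stood at 1.10 and 2.29 CPM in siCtrl DMSO, 8.11 and 10.6 in siY/T DMSO and 0.107 and 0.158 in siATF4 DMSO cells. In the same order under Srf it stood at 4.15 and 3.70, 14.1 and 16.9, and 0.246 and 0.257 CPM. The 3 siRNA groups did not overlap in either treatment, with log2 differences of 2.21 ± 0.20 and 1.85 ± 0.20 for siY/T (limma adjusted P = 1.2e-06 and 9.5e-06) and -1.74 ± 0.20 and -2.56 ± 0.20 for siATF4 (adjusted P = 6.1e-06 and 1.2e-07). *SLC2A6* was lower with siATF4 under Srf (-1.22 ± 0.07, limma adjusted P = 6.4e-09).

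Of the 18 other HIF targets tested, 6 were called with siY/T in DMSO, 1 up and 5 down (33.3%, against 14.6% of all genes), and 3 under Srf, all down (16.7%, against 9.95%). With siATF4, 1 was called in DMSO, up (5.56%, against 22.7%), and 5 under Srf, 1 up and 4 down (27.8%, against 28.9%). With Srf in siCtrl, siY/T and siATF4 cells 22.2%, 5.56% and 11.1% were called, against 17.5%, 9.97% and 8.63%. *LOX*, which crosslinks collagen, stood at 8.28 and 7.39 CPM in siCtrl DMSO, 2.73 and 2.90 in siY/T DMSO and 19.0 and 17.0 in siATF4 DMSO cells. Loss of YAP/TAZ lowered it (log2 -1.33 ± 0.09 in DMSO and -1.46 ± 0.09 under Srf, limma adjusted P = 1.1e-07 and 8.3e-08) and loss of ATF4 raised it (1.15 ± 0.09 and 1.19 ± 0.09, adjusted P = 1.9e-07 and 9.2e-08). The vasodilator *ADM* fell with siY/T by 3.26-fold and 2.83-fold, and *VEGFA*, the main angiogenic factor, named after its values were seen, rose with siY/T in DMSO (0.66 ± 0.06, limma adjusted P = 7.0e-07) and fell with siATF4 under Srf (-1.11 ± 0.06, adjusted P = 1.9e-09). *MXI1*, a MAX partner, rose with Srf in siCtrl cells (1.27 ± 0.08, limma adjusted P = 5.6e-08). Of the 6 HIF subunits and regulators tested, 0, 1, 0 and 1 were called in the siRNA comparisons, against 14.6%, 9.95%, 22.7% and 28.9% of all genes. Both calls were lower *EPAS1*, with siY/T and with siATF4 under Srf (-0.71 in the latter). *EPAS1* encodes HIF2A and was chosen for naming with its values known.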

How the data were processed

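RNA-seq of 12 libraries (6 groups of 2) was analysed. The authors aligned reads to hg19 with STAR, kept unique hits, counted them over RefSeq mRNA exons with QuasR and deposited CPM, and a strand setting is not given in the sources used here. All values were whole reads within 0.001 read. Genes with at least 1 CPM in 2 libraries (13515) were fitted by limma 3.58.1 (R 4.3.3) with trend on log2(CPM + 0.5), all 12 libraries in 1 model, with Benjamini-Hochberg adjustment over all genes. Symbols came from RefSeq (26111 of 26258 genes named), positions and lengths from the canonical transcripts of GENCODE on GRCh37. The genes and lists were chosen with earlier results of these data known. Values in every library are given for the siRNA targets, for listed genes called with a change of at least 1 on the log2 scale or a called difference of effects, and for the gene of highest mean CPM per role, and also for *NDRG1*, named after its values were seen. Of the other lists, genes called at 1 or more are named, at most 3 each. edgeR 4.0.16 and DESeq2 1.42.0 were run on the recovered reads, among 24 alternative settings. The limma fit was tested on simulated data.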

Additional observations from a re-analysis of the deposited data

Results flagged for a closer look

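The effect of siATF4 on *TXNIP* differed between Srf and DMSO by a test of the difference itself. The difference of the log2 effects was -1.91 ± 0.22 (limma, Benjamini-Hochberg adjusted P = 2.8e-05), from 1.21 ± 0.15 in DMSO to -0.70 ± 0.15 under Srf. Both siATF4 libraries were above both siCtrl libraries in DMSO and below them under Srf, on 26 to 151 reads a library.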

How the results depend on the processing

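With 2 libraries a group, the values describe these libraries. Of 6705 single values under alternatives, 6640 kept their status as called or not called, 47 became called and 18 lost the call. Of the values called in either setting, 0 reversed direction. Values called in neither setting counted as kept whatever their direction, and some of these small differences changed sign. With an adjusted P under 0.05 and no minimum size, 22, 21, 24 and 22 of the 34 genes passed for siY/T in DMSO and Srf and siATF4 in DMSO and Srf, 23, 20 and 17 for Srf in siCtrl, siY/T and siATF4 cells, and 8 and 13 for the differences of the siY/T and siATF4 effects. With a minimum of 1 on the log2 scale, 0, 1, 4 and 5 passed in the siRNA comparisons and 0, 0 and 2 for Srf in siCtrl, siY/T and siATF4 cells. For Srf in siCtrl cells, edgeR and DESeq2 each called 5 against 3. For Srf in siY/T cells, against 2, a pseudocount of 1 gave 0 and a filter at 5 CPM or TMM scaling 1. For Srf in siATF4 cells the filter at 5 CPM gave 1. For the siY/T difference quantile normalization gave 1. For the siATF4 difference a pseudocount of 0.1, quantile normalization and edgeR each gave 2 against 1, and the filter at 5 CPM gave 0, since *TXNIP* was then not tested. Other causes were not tested. Leaving out 1 library at a time gave 4 to 5, 3 to 5, 7 to 7 and 10 to 11 calls in the siRNA comparisons. It gave 2 to 4 for Srf in siCtrl cells, 1 (without siY/T DMSO replicate 1) to 4 (without siY/T DMSO replicate 2) in siY/T cells, 2 to 3 in siATF4 cells, and 0 to 1 and 1 to 3 for the differences. Replicate numbers were not taken to pair the samples. The correlation of deviations over 15 pairs of groups ran from -0.28 to 0.19, with 4 over 0.1, namely 0.19 for siCtrl with siY/T in DMSO and 0.10, 0.16 and 0.12 among the Srf groups. With the replicate block the counts were 4, 4, 7, 10, 3, 2, 2, 0 and 1, as without it. At 41408348 reads or more the depth limits mainly *PDK4*, *TXNIP* and the 6 genes under 1 CPM.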
